A study of Rattus norvegicus with 12 samples.

Results

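The interferon response genes followed here are 39 of 23526 genes measured in rat lumbar spinal cord (segments L3 to L5). Most are genes that cells switch on when interferons bind their receptors, while the 4 receptor chains on the list bind the interferons. The list holds receptor chains, transcription factors, antiviral effectors, guanylate-binding proteins, chemokines and regulators, matched by gene symbol, and each had 1 entry in the expression table. Of the 39 genes, 38 passed the filter on low counts and were tested among 18714 genes. Sham tissue at day 0 was compared with tissue from days 3, 7 and 14 of spinal cord injury (SCI), with 3 libraries of rat lumbar tissue in each of 4 groups. Strain, sex, age, and the level and kind of the injury were not stated in the labels, no sham group was taken at the later days, and no group carries a named allele or drug. Whether each library is its own animal is not stated in the labels, and the p-values therefore describe the spread among these libraries alone, which may be technical.

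Type I interferons bind a receptor built from Ifnar1 and Ifnar2, and interferon gamma binds a receptor built from Ifngr1 and Ifngr2. The type I receptor activates a complex holding Stat2 and Irf9 that binds the interferon-stimulated response element (ISRE), and signals from the interferon gamma receptor act through the gamma-activated site (GAS). In the central nervous system microglia, astrocytes, endothelial cells and infiltrating immune cells can all respond in this way.

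Because the pathway acts through these response elements, promoters were searched for them. RefSeq promoters of the build GRCr8, from 250 bases before to 50 bases after the start of a gene, were matched for 32 of the 39 members. Not matched were Ifit1, Ifit2, Mx2, Ifitm1, Isg15, Usp18 and Rtp4. The ISRE core, a pair of GAAA runs with any 2 bases between them (TTTC runs where it lies on the opposite strand), stood in 17 of the 32 promoters (53.1%) and in 3.92% of all 33469 promoters of the same length. The GAS letters TTCNNNGAA, which read the same on both strands, stood in 9 of the 32 (28.1%) and in 8.87% of all. In Oas1a and Bst2 a pair of ISRE matches overlapped each other, and in Bst2 a GAS match overlapped an ISRE match. Matches are shown for members whose values are described below, in the direction of the gene, with the matched letters in capitals: first 8 ISRE matches, then 2 GAS matches. A match is a run of letters and does not show that a factor binds there.
Ifitm3 (chr1:205541778-205541817, minus strand): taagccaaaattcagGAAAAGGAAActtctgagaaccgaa
Ifitm2 (chr1:205482357-205482396, minus strand): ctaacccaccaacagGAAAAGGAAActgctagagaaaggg
Gbp2 (chr2:234005681-234005720, plus strand): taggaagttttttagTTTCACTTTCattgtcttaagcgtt
Gbp5 (chr2:233910928-233910967, plus strand): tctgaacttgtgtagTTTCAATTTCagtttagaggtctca
Isg20 (chr1:142239952-142239991, plus strand): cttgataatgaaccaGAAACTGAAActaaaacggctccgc
Rsad2 (chr6:48788243-48788282, minus strand): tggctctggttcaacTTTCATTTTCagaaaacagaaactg
Parp14 (chr11:78408043-78408082, plus strand): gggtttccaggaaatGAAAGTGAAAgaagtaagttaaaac
Irf7 (chr1:205800068-205800107, minus strand): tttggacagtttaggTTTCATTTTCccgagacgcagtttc
Irf1 (chr10:38417778-38417816, plus strand): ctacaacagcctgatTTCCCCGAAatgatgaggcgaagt
Irf9 (chr15:33065722-33065760, plus strand): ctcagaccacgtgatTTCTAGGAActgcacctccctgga

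Library totals ran from 63.0 to 79.1 in units of 1e+06 counts. Levels are given as CPM, a gene's counts scaled to a library total of 1e+06, always in the order of replicates 1, 2 and 3. Marker levels of other cell types varied within groups. Schwann cell markers (4 genes) summed to 2108 CPM (SCI day 7 replicate 2) up to 53312 CPM (SCI day 3 replicate 3). In sham replicates 1, 2 and 3 that sum was 5733, 46264 and 7205 CPM. Sensory ganglion markers (4 genes) ran from 20.1 CPM (SCI day 3 replicate 3) to 979 CPM (SCI day 14 replicate 2), with 182 to 257 in sham. For 7 neuronal markers the summed CPM was low in 3 libraries, at 195 (SCI day 3 replicate 1), 149.6 (SCI day 3 replicate 3) and 663 (SCI day 14 replicate 2), while the remaining 9 libraries held 1358 to 2372. Among immune markers, 7 monocyte and macrophage genes summed to 70.6 to 277 CPM in sham, 251 to 902 at day 3, 154 to 612 at day 7 and 180 to 755 at day 14. The sum of 7 microglial genes was 204 to 300 CPM in sham, 232 to 835 at day 3, 500 to 1103 at day 7 and 284 to 864 at day 14. Neutrophil markers summed to 61.6 CPM in sham replicate 2 and to 2.63 and 1.84 CPM in the other sham libraries, and to 25.4 to 72.3 CPM at day 3. Endothelial markers (4 genes) were above sham in all 9 SCI libraries, at 126 to 159 CPM in sham, 245 to 577 at day 3, 216 to 320.03 at day 7 and 187 to 195 at day 14. Astrocyte markers (4 genes) summed to 2399 to 4389.5 CPM in sham, 1609.7 to 5440.4 at day 3, 8448 to 10858 at day 7 and 2605 to 6859 at day 14. Markers of T and NK cells (7 genes) summed to at most 24.99 CPM in every library, of which Cd8a gave 22.6 CPM in the highest. Cd3d was at 0 in 9 of 12 libraries, Klrd1 in 6, Nkg7 in 3, and Cd3e, Cd3g and Prf1 in 1 each. Cd8a was above 0 in all of them, and Cd4 and Gzmb had no matching symbol. Whether these differences take part in the results below was not tested. In whole tissue, fewer cells of a type and less RNA per cell cannot be told apart.

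As a list, the interferon response genes were higher at day 3 than in sham, with a median log2 fold change of 1.26 over the 38 tested against 0.03 over all 18714 genes. All 38 lay above 0, as did 51.9% of all genes. The list was chosen with earlier results of these data known, so its comparisons with all genes, here and below, are descriptive. Called higher were 4 of the 38, Ifitm3, Ifitm2, Parp9 and Dtx3l, and none was called lower (p from edgeR's quasi-likelihood test, adjusted by Benjamini-Hochberg, under 0.05). Of all genes tested, 5.5% were called higher and 1.2% lower at day 3. DESeq2 called 19 members and limma voom 20. At an unadjusted p under 0.05 there were 22 of 38 members, against 20.6% of all genes. The ranges of the 3 day 3 and 3 sham libraries did not overlap in 19 members, all higher, against 21.2% of all genes.
These calls hung on single libraries, and so did the calls over all genes. No member was called at day 3 without sham replicate 1 or 3, SCI day 3 replicate 1 or 3, SCI day 7 replicate 2, or SCI day 14 replicate 3, and 2 were called without sham replicate 2 or SCI day 14 replicate 1. Without SCI day 3 replicate 2, the library of that day with neuronal markers within the sham range, 21 were called. Calls over all genes, in both directions, numbered 1254, fell to between 1 and 18 in the 6 fits without 1 library that called no member, and came to 7087 without SCI day 3 replicate 2. The median over the members was 0.75 without SCI day 3 replicate 3. With SCI day 3 replicates 1 and 3 both left out, 0 members were called, the median was 0.33 and 32 of 38 lay above 0.

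**Figure D1:**
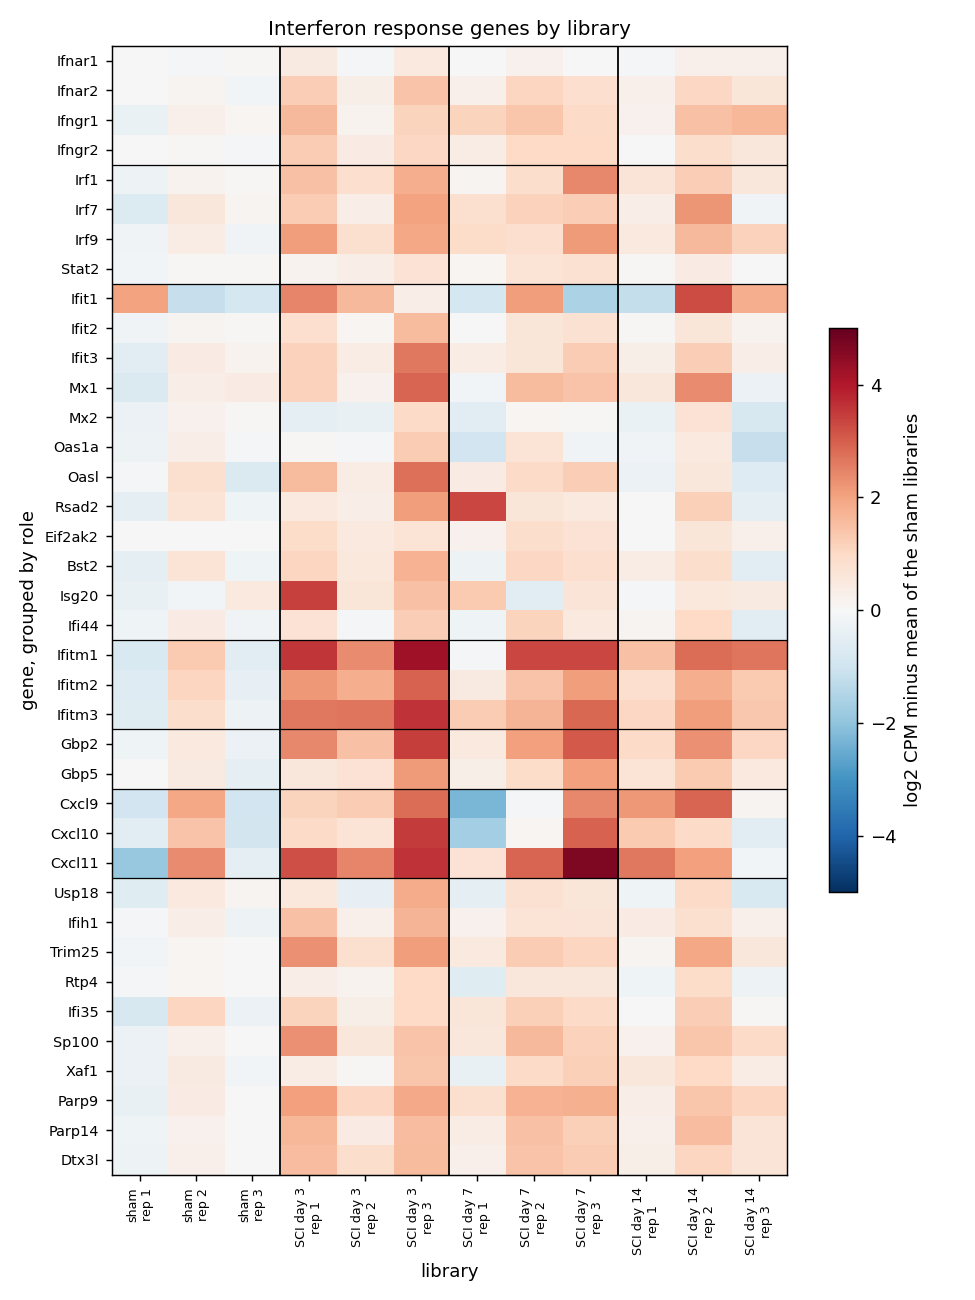
Each cell is the log2 CPM of 1 gene in 1 library minus the mean of the 3 sham libraries, for the 38 genes tested (rows, grouped by role) and 12 libraries (columns). SCI day 3 replicate 3 is above the sham mean for all 38 genes. SCI day 7 replicate 1 and SCI day 14 replicates 1 and 3 are near or below the sham mean for most antiviral effectors. In SCI day 14 replicate 3 the effectors run from -1.16 (Oas1a) to 1.80 (Ifit1).

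Receptor chains were among the more abundant members in sham cord, and 0 of 4 passed on any day in edgeR's test. At an unadjusted p under 0.05 the higher ones were Ifnar2, Ifngr1 and Ifngr2, at days 3 and 7, and Ifngr1 at day 14. On the deposited FPKM scale, which accounts for gene length, Ifngr1 had the highest sham mean of the 39 genes (24.5 ± 4.85 FPKM), followed by Ifitm3 (20.5 ± 12.1), Ifitm2 (17.3 ± 12.3) and Ifnar1 (17.2 ± 0.530; SD, n = 3 each). Neighbours in this order lay within their spread of each other. At day 3 Ifitm3 stood first with 154 ± 64.8 FPKM, ahead of Ifitm2 with 77.7 ± 32.9 and Ifngr1 with 51.2 ± 23.4 (SD, n = 3 each).

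Ifngr1, the ligand-binding chain for interferon gamma, measured 40.2, 59.9 and 53.8 CPM in sham, 154.5, 56.4 and 110.0 at day 3, 109.0, 132.7 and 97.9 at day 7, and 58.5, 139.5 and 161.6 at day 14. All 3 day 7 libraries lay above the sham range, and on days 3 and 14 one library lay within it. Its log2 fold changes were 1.02 ± 0.394, 1.10 ± 0.394 and 1.18 ± 0.395 (SE; adjusted p from edgeR = 0.102, 0.393 and 0.594).
Ifnar2, the long-tailed chain of the type I receptor, measured 25.3, 27.5 and 22.9 CPM in sham, 59.2, 31.1 and 68.6 at day 3, 30.4, 52.6 and 44.7 at day 7, and 29.9, 52.0 and 38.2 at day 14. Every SCI library lay above every sham library, and the log2 fold changes were 1.04, 0.70 and 0.62 (adjusted p from edgeR = 0.0615, 0.490 and 0.700). Ifngr2, the accessory chain for interferon gamma, measured 24.0, 24.9 and 22.9 CPM in sham and 57.6, 31.7 and 48.5 at day 3, then 31.0, 47.7 and 47.8 at day 7 and 24.5, 43.8 and 35.4 at day 14. It was clear of sham on days 3 and 7, and 1 day 14 library fell within the sham range (log2 fold changes 0.90, 0.77 and 0.49; adjusted p from edgeR = 0.0579, 0.374 and 0.745).
Ifnar1, the partner of Ifnar2 in the type I receptor, stayed near its sham level. It measured 102.7, 99.8 and 106.2 CPM in sham and 140.1, 98.7 and 144.1 at day 3. The later values were 105.0, 119.8 and 105.1 at day 7, and 97.8, 121.9 and 122.9 at day 14. The log2 fold change was 0.28 ± 0.162 at day 3 (SE; adjusted p from edgeR = 0.241) and turned to -0.11 without SCI day 3 replicates 1 and 3. At the later days it was 0.05 and 0.11. In the table Ifnar1 and Ifngr2 are direct neighbours on chromosome 11, with Ifnar2 nearby.

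Of the transcription factors of the pathway, 0 of 4 passed on any day in edgeR's test. Irf9, the DNA-binding subunit of the type I complex, measured 3.33, 4.87 and 3.38 CPM in sham, 16.3, 6.57 and 14.6 at day 3, 7.20, 6.82 and 16.5 at day 7, and 5.38, 11.6 and 8.46 at day 14. No SCI library overlapped the sham range. Log2 fold changes were 1.66 ± 0.454, 1.36 ± 0.450 and 1.10 ± 0.448 (SE; adjusted p from edgeR = 0.0529, 0.366 and 0.638).
Irf1, a factor induced early by interferon gamma, measured 6.32, 8.55 and 7.69 CPM in sham, 20.8, 13.4 and 26.5 at day 3, 8.12, 13.8 and 39.2 at day 7, and 11.7, 17.4 and 11.03 at day 14. Days 3 and 14 were clear of sham, while day 7 ran from within the sham range to the highest value of all in replicate 3. Its log2 fold changes were 1.40, 1.39 and 0.79 (adjusted p from edgeR = 0.0881, 0.395 and 0.819).
Irf7, which drives a second wave of type I interferon production, measured 4.23, 10.1 and 7.49 CPM in sham, 16.5, 8.60 and 27.5 at day 3, 11.8, 15.3 and 16.2 at day 7, and 8.62, 31.9 and 5.999 at day 14. At day 14 replicate 2 alone stood above sham, and without it the log2 fold change went from 1.07 to -0.032. At days 3 and 7 the values were 1.26 and 0.95 (adjusted p from edgeR = 0.171, 0.668 and 0.793 for the 3 days).
Stat2, which joins Irf9 in the type I complex, had the smallest change of these factors. Its CPM were 45.1, 51.9 and 52.3 in sham, 56.3, 63.3 and 81.2 at day 3, 52.8, 79.8 and 85.3 at day 7, and 51.8, 66.0 and 49.6 at day 14. Days 3 and 7 lay above the sham range and day 14 overlapped it, with log2 fold changes of 0.40, 0.50 and 0.13 (adjusted p from edgeR = 0.193, 0.476 and 0.912).

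The interferon-induced transmembrane proteins, which sit in endosomal and plasma membranes and block the entry of enveloped viruses, had the highest median fold change of the roles at day 3, 2.90 on the log2 scale over 3 genes. Ifitm3 rose from 8.11, 23.4 and 10.4 CPM in sham to 78.5, 79.9 and 155.5 at day 3, and measured 30.6, 40.3 and 92.4 at day 7 and 25.4, 53.7 and 32.1 at day 14. No SCI library overlapped sham, and at day 3 the lowest library was far above the highest sham library. The group means were 14.0 ± 8.24 CPM in sham and 104.6 ± 44.0 at day 3 (SD, n = 3 each; log2 fold change 2.90 ± 0.557, SE; adjusted p from edgeR = 0.0338). At days 7 and 14 the log2 fold changes were 1.93 and 1.38 (adjusted p from edgeR = 0.289 and 0.627). Ifitm3 is the member whose call at day 3 was found in most alternative fits, 12 of 22, and in 6 of the 12 that each left out 1 library.
Ifitm2 rose from 6.36, 21.3 and 7.52 CPM in sham to 45.1, 35.2 and 77.9 at day 3, and measured 13.8, 27.0 and 42.7 at day 7 and 17.9, 35.3 and 25.3 at day 14. Day 3 was clear of sham, and the later days overlapped sham replicate 2 (day 3 log2 fold change 2.16 ± 0.554, SE; adjusted p from edgeR = 0.0473). At days 7 and 14 it was 1.20 and 1.13 (adjusted p from edgeR = 0.501 and 0.693).
Ifitm1 had the largest log2 fold change of any member at day 3, 3.27 ± 0.900 (SE), and was not called (adjusted p from edgeR = 0.0536). Its CPM were 1.15, 4.83 and 1.31 in sham, 23.2, 10.2 and 37.3 at day 3, 1.88, 19.9995 and 19.8 at day 7, and 5.47, 13.6 and 12.5 at day 14. SCI day 7 replicate 1 was the one SCI library within the sham range, and the log2 fold changes at days 7 and 14 were 2.46 and 2.08 (adjusted p from edgeR = 0.393 and 0.641). The 3 genes lie next to each other on chromosome 1 and are close copies, and the handling of reads shared by such copies was not stated in the labels, so the split among them is uncertain. Sham replicate 2 was the highest sham library for all 3. It was also the sham library with the most transcripts of neutrophil, B cell, Schwann cell, and monocyte and macrophage markers.

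**Figure D2:**
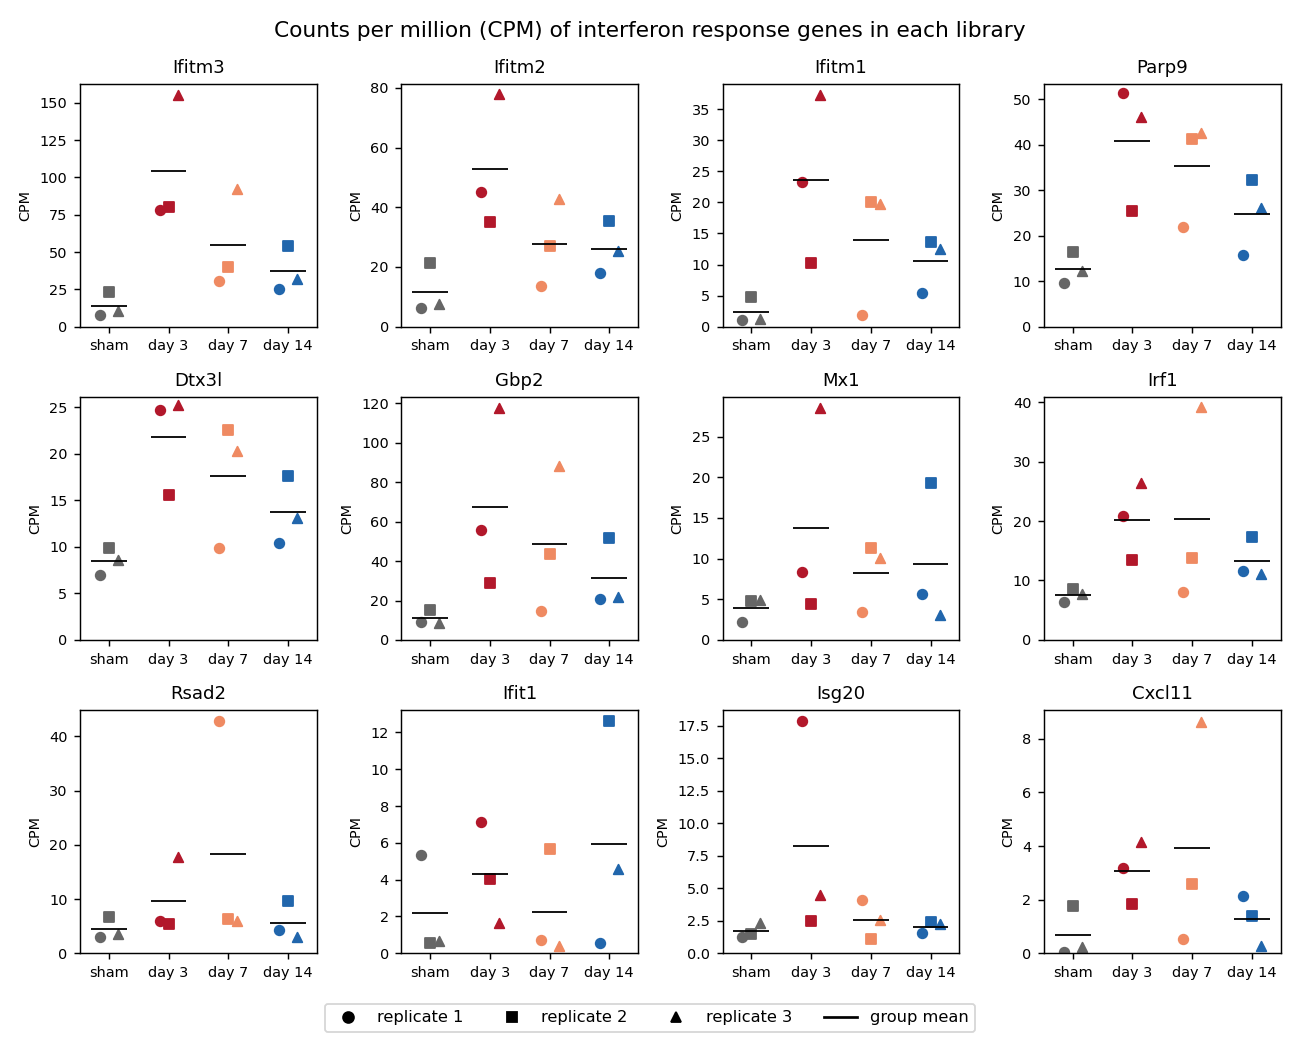
CPM (vertical axis, linear and starting at 0) of 12 members in each library, by group on the horizontal axis, with the replicate shown by the marker shape and the group mean by a line. Ifitm3 at day 3 runs from 78.5 to 155.5 CPM against 8.11 to 23.4 in sham, while 1 library stands far above its group for Rsad2 at day 7 (42.8 CPM) and Isg20 at day 3 (17.9 CPM).

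Parp9 and Dtx3l form an enzyme complex that attaches ADP-ribose and ubiquitin and strengthens interferon signalling. They are read in opposite directions from starts 1214 bases apart (RefSeq, GRCr8), and both rose at day 3. Parp9 went from 9.62, 16.4 and 12.2 CPM in sham to 51.4, 25.4 and 46.1 at day 3 (log2 fold change 1.65 ± 0.361, SE; adjusted p from edgeR = 0.0369). It measured 21.8, 41.4 and 42.7 CPM at day 7 and 15.8, 32.3 and 26.04 at day 14. Days 3 and 7 lay above the sham range and day 14 overlapped it, with later log2 fold changes of 1.42 and 0.92 (adjusted p from edgeR = 0.251 and 0.629).
Dtx3l went from 6.94, 9.90 and 8.55 CPM in sham to 24.7, 15.6 and 25.2 at day 3 (log2 fold change 1.33 ± 0.321, SE; adjusted p from edgeR = 0.0423), and measured 9.88, 22.5 and 20.3 at day 7 and 10.4, 17.6 and 13.1 at day 14. SCI day 7 replicate 1 touched the sham range. The later log2 fold changes were 1.001 and 0.66 (adjusted p from edgeR = 0.347 and 0.696). Parp14, an ADP-ribosyltransferase and their neighbour on chromosome 11, was above sham in all 9 SCI libraries and had log2 fold changes of 1.26, 1.01 and 0.87 (adjusted p from edgeR = 0.0715, 0.444 and 0.682).

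**Figure D3:**
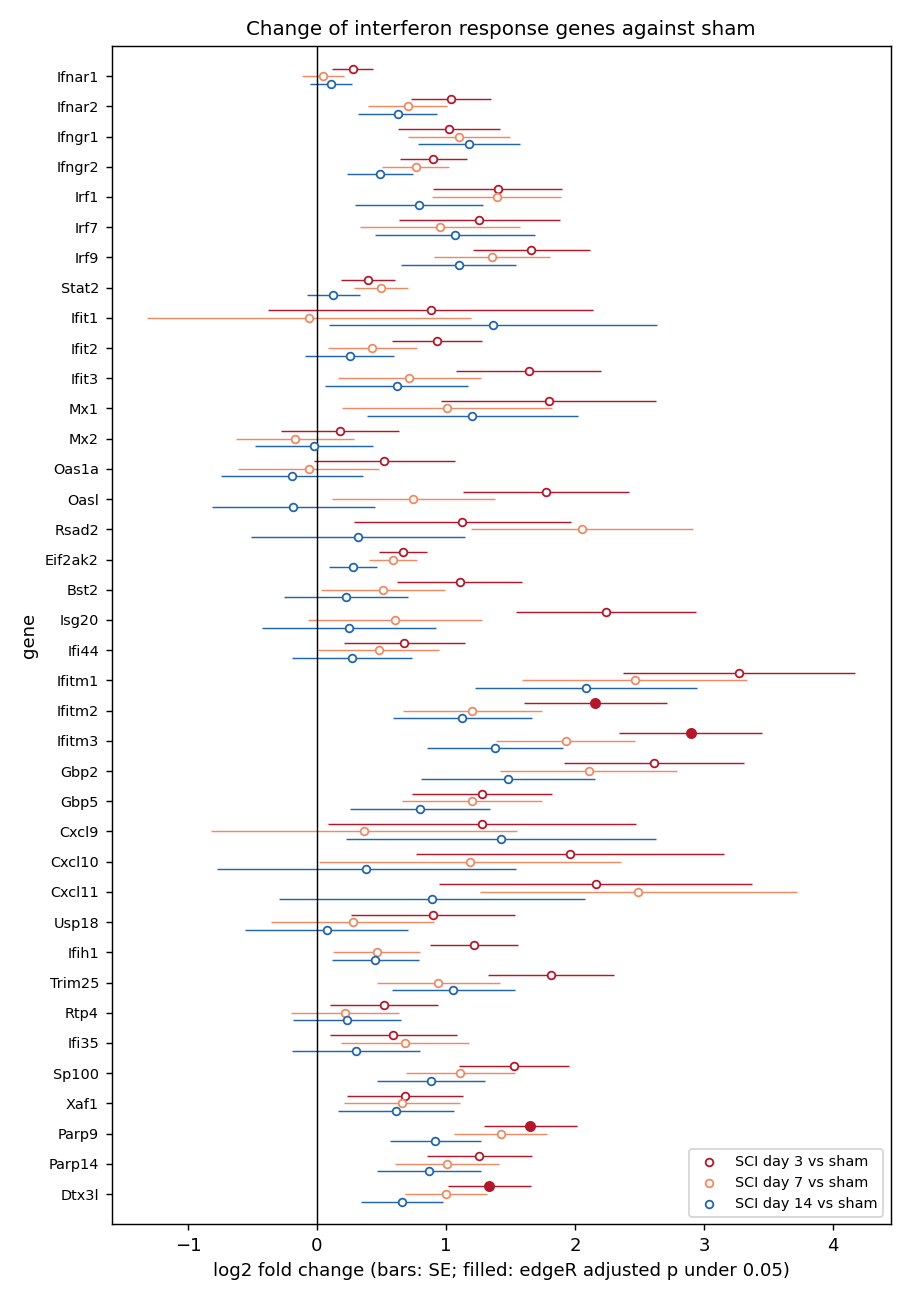
Log2 fold change against sham (horizontal axis) of the 38 genes tested (vertical axis) at days 3, 7 and 14, with the SE as bars and filled points for calls. Filled points are Ifitm2, Ifitm3, Parp9 and Dtx3l at day 3, and the 3 sets share the sham libraries.

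Guanylate-binding proteins are interferon-induced GTPases that attack vacuoles of pathogens and feed inflammasomes. Gbp2 measured 9.23, 15.03 and 8.65 CPM in sham, 55.8, 29.0 and 117.8 at day 3, 14.7, 43.8 and 88.1 at day 7, and 20.7, 51.6 and 21.8 at day 14. It was above sham in every SCI library but day 7 replicate 1, with log2 fold changes of 2.61 ± 0.698, 2.11 ± 0.685 and 1.48 ± 0.672 (SE; adjusted p from edgeR = 0.0507, 0.360 and 0.677). For Gbp5 the values were 1.28, 1.20 and 0.80 (adjusted p from edgeR = 0.126, 0.505 and 0.843), with its highest levels, 19.8 and 18.8 CPM, in SCI day 3 replicate 3 and SCI day 7 replicate 3, and 3.22 to 6.08 CPM in sham.

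The chemokines Cxcl9, Cxcl10 and Cxcl11, which attract T cells through the receptor Cxcr3 and lie side by side on chromosome 14, spread widely within groups. Cxcl9 measured 0.511, 4.02 and 0.507 CPM in sham, 2.25, 2.55 and 7.39 at day 3, 0.188, 0.953 and 5.497 at day 7, and 4.67, 7.83 and 1.14 at day 14. All 3 SCI groups overlapped sham, in which replicate 2 was high. Its log2 fold changes were 1.28 ± 1.20, 0.36 ± 1.18 and 1.43 ± 1.20 (SE; adjusted p from edgeR = 0.461, 0.939 and 0.887), and the day 7 value went to -1.61 without SCI day 7 replicate 3.
Cxcl11 measured 0.0619, 1.77 and 0.215 CPM in sham, 3.19, 1.83 and 4.17 at day 3, 0.536, 2.58 and 8.64 at day 7, and 2.12, 1.39 and 0.286 at day 14. Day 3 was just clear of sham replicate 2, and the later days overlapped it (log2 fold changes 2.16, 2.49 and 0.89; adjusted p from edgeR = 0.220, 0.551 and 0.904). Cxcl10 ranged from 1.20 to 6.17 CPM in sham and had a pair of high libraries, at 26.3 CPM (SCI day 3 replicate 3) and 17.8 CPM (SCI day 7 replicate 3), with at most 5.76 CPM in the other SCI libraries (log2 fold changes 1.96, 1.19 and 0.38; adjusted p from edgeR = 0.255, 0.783 and 0.950). Its day 7 value went to -0.97 without SCI day 7 replicate 3, and its day 14 value to -0.016 without SCI day 14 replicate 1.

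Antiviral effectors, which act on viral RNA, translation and budding, had a median log2 fold change of 1.02 at day 3, 0.55 at day 7 and 0.26 at day 14 over 12 genes, and 0 of 12 passed on any day in edgeR's test. In several of them 1 library held most of a group's signal. Mx1, a dynamin-like GTPase, measured 2.25, 4.73 and 4.94 CPM in sham, 8.36, 4.41 and 28.6 at day 3, 3.45, 11.4 and 10.1 at day 7, and 5.60, 19.3 and 3.06 at day 14. SCI day 3 replicate 3 and SCI day 14 replicate 2 stood apart, and each SCI group overlapped sham (log2 fold changes 1.79, 1.01 and 1.20; adjusted p from edgeR = 0.149, 0.739 and 0.846).
Rsad2, known as viperin, measured 3.07, 6.63 and 3.56 CPM in sham, 5.93, 5.31 and 17.8 at day 3, 42.8, 6.38 and 5.91 at day 7, and 4.21, 9.67 and 2.95 at day 14. Its highest value by far was in SCI day 7 replicate 1, the library with the lowest mean over the interferon response genes of all 9 SCI libraries and the one with the most erythrocyte transcripts (2 markers summing to 9231 CPM against at most 2058 CPM elsewhere). The log2 fold changes were 1.13, 2.06 and 0.32 (adjusted p from edgeR = 0.350, 0.471 and 0.941).
Isg20, a 3′ to 5′ exonuclease, measured 1.25, 1.49 and 2.30 CPM in sham, 17.9, 2.496 and 4.50 at day 3, 4.10, 1.13 and 2.54 at day 7, and 1.55, 2.39 and 2.22 at day 14. Day 3 lay above the sham range, mostly through replicate 1, and its log2 fold change there was 2.24 ± 0.700 (SE; adjusted p from edgeR = 0.0673). At days 7 and 14 it was 0.60 and 0.25 (adjusted p from edgeR = 0.812 and 0.943).
Ifit1, which binds viral RNA ends, measured 5.33, 0.568 and 0.691 CPM in sham, 7.16, 4.03 and 1.66 at day 3, 0.697, 5.66 and 0.414 at day 7, and 0.556, 12.6 and 4.59 at day 14. In 5 libraries from 3 groups it stayed under 1 CPM, and in SCI day 3 replicate 3, where 21 of the 38 members had their highest value, it was at 1.66 CPM. Its neighbours on chromosome 1, Ifit2 and Ifit3, were highest in that same library, at 26.8 and 25.3 CPM. The log2 fold changes of Ifit1 were 0.88 ± 1.26, -0.06 ± 1.25 and 1.36 ± 1.27 (SE; adjusted p from edgeR = 0.640, 0.990 and 0.892), and the day 7 value was 1.78 without sham replicate 1 and 0.041 without TMM scaling.
Eif2ak2, the kinase that halts translation on double-stranded RNA, had the tightest sham values of the effectors, 32.1, 32.0 and 32.3 CPM. All 9 SCI libraries lay above them, from 33.0 to 60.5 CPM (log2 fold changes 0.67, 0.59 and 0.28; adjusted p from edgeR = 0.0550, 0.343 and 0.836). The remaining effectors, Ifit2, Ifit3, Mx2, Oas1a, Oasl, Bst2 and Ifi44, had log2 fold changes between 0.18 (Mx2) and 1.78 (Oasl) at day 3 and overlapped sham on every day. The day 3 value of Mx2 was -0.47 without SCI day 3 replicate 3.

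Sensors and regulators, which include Parp9 and Dtx3l, had median log2 fold changes of 1.24, 0.81 and 0.64 over the 10 tested. Trim25, the ubiquitin ligase that activates the RNA sensor RIG-I, was above sham in all 9 SCI libraries, from 6.81 to 29.9 CPM against 5.60 to 6.58 CPM (log2 fold change 1.81 at day 3; adjusted p from edgeR = 0.0511). Sp100, a nuclear body protein, and Ifih1, the RNA sensor MDA5, had log2 fold changes of 1.53 and 1.21 at day 3 (adjusted p from edgeR = 0.0546 and 0.0553). For Usp18, the protease that damps type I signalling, Xaf1, Ifi35 and Rtp4 they were 0.90, 0.68, 0.59 and 0.52 (adjusted p from edgeR = 0.328, 0.291, 0.408 and 0.391). Isg15, the ubiquitin-like modifier, had 1 to 18 counts in a library and was not tested, with 1 count in each sham library and the 18 in SCI day 3 replicate 3.

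At days 7 and 14 the list stood lower than at day 3, and 0 of 38 members passed on either day in edgeR's test. Of all genes tested, 0.016% were called higher on each of these days. The median log2 fold change against sham was 0.76 at day 7 and 0.62 at day 14, against -0.02 and 0.01 over all genes. Above 0 lay 35 of 38 members each time, against 47.4% and 51.1% of all genes. Without SCI day 14 replicate 2 the day 14 median was 0.26, with 27 of 38 above 0. Called lower on each day were 0 members and 0% of all genes. At an unadjusted p under 0.05 there were 16 members at day 7, against 7.76% of all genes, and 5 at day 14, against 6.43%. DESeq2 and limma voom each called Ifitm3 and Parp9 at day 7 and no member at day 14. Ranges did not overlap sham in 12 members at day 7 (13.9% of all genes) and in 11 at day 14 (11% of all genes). Over the 9 SCI libraries together, 6 members did not overlap sham, namely Ifnar2, Irf9, Eif2ak2, Ifitm3, Trim25 and Parp14, against 4.37% of all genes. In the contrast of the mean of the 3 SCI days with sham 0 of 38 members passed in edgeR's test, 17 did at an unadjusted p under 0.05 (13% of all genes), 13 in DESeq2 and 18 in limma voom. Called higher in that contrast were 0.0481% of all genes, and 37 members lay above 0, against 50.2% of all genes. Without SCI day 3 replicate 2, 15 members were called.

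Between the days themselves 0 of 38 members passed in any of 3 contrasts with edgeR, and so did 0% of all genes. From day 3 to day 14 the median was -0.63, with 4 members lower at an unadjusted p under 0.05 (11% of all genes). These were Oasl (-1.96), Isg20 (-1.99), Ifitm3 (-1.52) and Ifih1 (-0.76), with adjusted p from edgeR between 0.209 and 0.271. DESeq2 called Oasl and Isg20 in that contrast, and limma voom called no member. From day 3 to day 7 the median was -0.34, with 2 members lower at an unadjusted p under 0.05 (Isg20 and Ifih1; 9.48% of all genes), and from day 7 to day 14 it was -0.22, with none (1.42% of all genes). DESeq2 and limma voom called no member in these last contrasts. Without SCI day 3 replicate 2, edgeR called 4 members between days 3 and 14 and 2 between days 3 and 7. Without SCI day 3 replicates 1 and 3 the medians turned to 0.18 and 0.45. Single libraries moved them too: without SCI day 3 replicate 3 the median was -0.18 between days 3 and 14 and -0.034 between days 3 and 7, with 18 of 38 members above 0 in the latter. Between days 3 and 7 it was -0.62, -0.21 and -0.58 without SCI day 3 replicate 2, SCI day 7 replicate 1 and SCI day 7 replicate 3. Between days 7 and 14 it was -0.44, -0.092 and -0.016 without SCI day 7 replicates 1, 2 and 3 in turn, and -0.079, -0.62 and -0.14 without SCI day 14 replicates 1, 2 and 3.

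Library by library, the list overlapped between days. The mean log2 deviation of the 38 members from the sham mean was 1.40, 0.65 and 1.90 in the day 3 libraries, 0.19, 1.08 and 1.30 at day 7, and 0.38, 1.34 and 0.35 at day 14, with -0.31, 0.47 and -0.16 in sham. SCI day 7 replicate 1 and SCI day 14 replicates 1 and 3 lay below sham replicate 2. Members above all 3 sham libraries numbered 32, 19 and 36 of 38 in the day 3 libraries, where 43.7%, 32.6% and 40.2% of all genes were. At day 7 they numbered 14, 33 and 32 (25.5%, 37.4% and 34.1% of all genes) and at day 14 16, 35 and 18 (25.9%, 36.4% and 37.8%). In SCI day 14 replicate 3 the antiviral effectors Mx2, Oas1a, Rsad2, Bst2 and Ifi44 lay below all 3 sham libraries.
SCI day 3 replicate 3 held the highest value of 21 of the 38 members, SCI day 3 replicate 1 of 7, SCI day 7 replicate 3 and SCI day 14 replicate 2 of 4 each. Within day 14, replicate 2 was highest for 34 of 38, and within sham replicate 2 was highest for 32. By role, SCI day 3 replicate 3 and SCI day 7 replicate 3 were level in chemokines (3.31 and 3.33 above the sham mean) and in transcription factors (1.62 and 1.63), and stood at 1.64 and 0.51 in antiviral effectors. Transmembrane proteins were at 3.61 and 2.76 in these libraries and guanylate-binding proteins at 2.80 and 2.56. Receptor chains were at 1.14 in SCI day 3 replicate 1 and 1.02 in SCI day 3 replicate 3. SCI day 14 replicate 2 was at 1.12 for antiviral effectors, where the other day 14 libraries were at -0.05 and -0.12. Monocyte and macrophage markers summed to 902, 251 and 556 CPM in the day 3 libraries, 154, 612 and 475 at day 7, and 180, 755 and 502 at day 14. The lowest SCI sums were 154 (day 7 replicate 1), 180 (day 14 replicate 1) and 251 CPM (day 3 replicate 2). Their list means were 0.19, 0.38 and 0.65. SCI day 7 replicate 2, day 14 replicate 2 and day 3 replicate 1 had 612, 755 and 902 CPM. Their list means were 1.08, 1.34 and 1.40. SCI day 14 replicate 3, with 502 CPM, had a list mean of 0.35, and SCI day 7 replicate 3, with 475 CPM, one of 1.30. SCI day 3 replicate 3, with 556 CPM, had the highest list mean, 1.90. Sham replicates 1, 2 and 3, with 70.6, 277 and 81.8 CPM, had list means of -0.31, 0.47 and -0.16. Whether the list follows these markers was not tested.

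**Figure D4:**
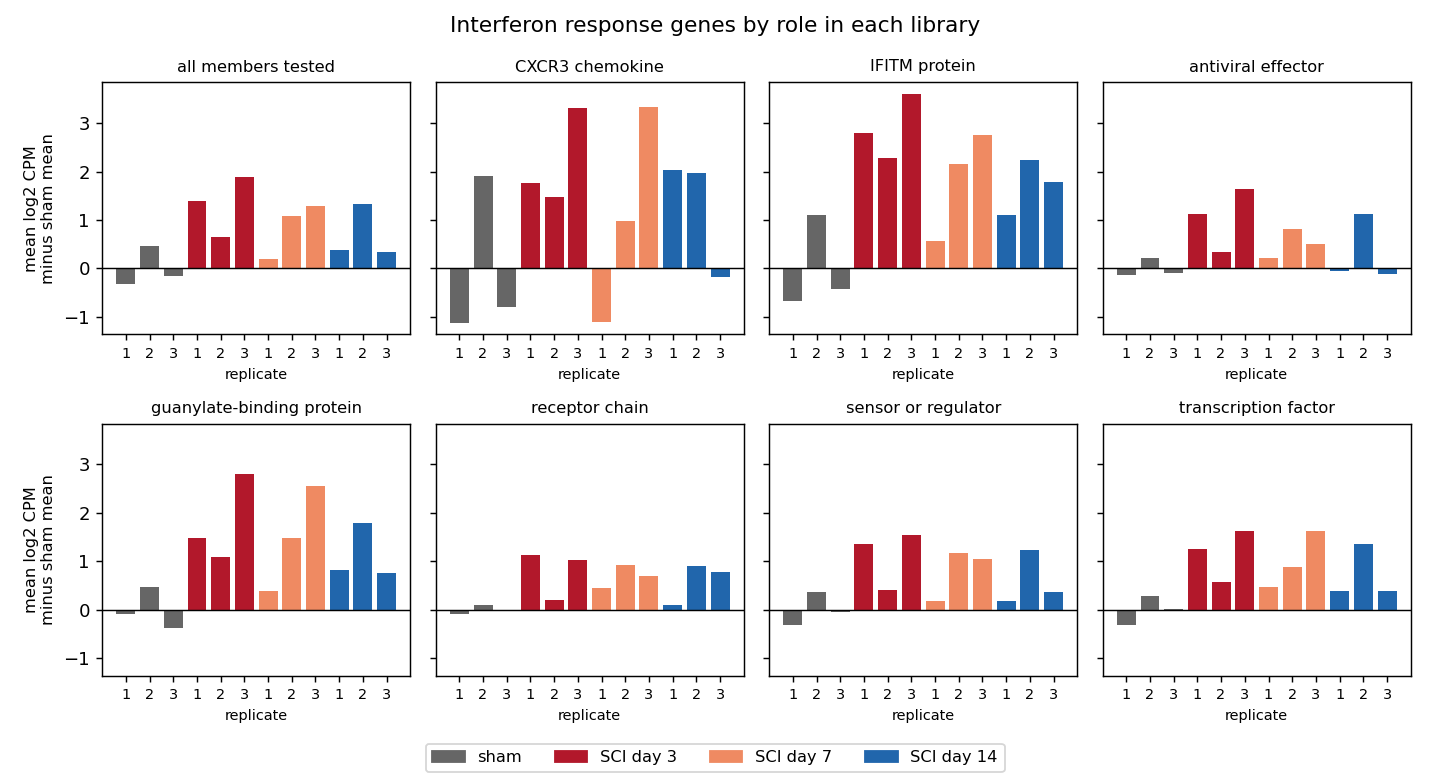
Bars give, for each of 12 libraries, the mean log2 CPM of the members of a role minus the mean of the sham libraries, with colours for the groups and replicate numbers below. Chemokines run from -1.13 to 1.92 within sham alone, while receptor chains run from -0.08 to 0.10.

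The size of the change was set beside the promoter letters. At day 3 the 17 members with the ISRE core had a median log2 fold change of 1.26, from 0.52 to 2.90, and 3 of them were called. The 15 without it had a median of 1.40, from 0.28 to 2.16, and 1 was called. By role, the core stood in 7 of 9 effector promoters, 2 of 2 transmembrane protein promoters, 2 of 2 guanylate-binding protein promoters, 4 of 8 of sensors and regulators, 1 of 3 of chemokines, 1 of 4 of transcription factors and 0 of 4 of receptor chains.

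The interferons themselves were close to the limit of detection. Ifng gave 3 counts in SCI day 7 replicate 3 and 0 counts in the other 11 libraries, where a count of 0 allows up to 3 counts, or 0.0379 to 0.0476 CPM depending on the library. Ifnb1 had at most 4 counts in a library, and Ifna4 and Ifne at most 8. None of these was tested, and the limits cover counting error only. Siglech, a marker of the plasmacytoid dendritic cells that make type I interferon, was at 0 in 10 of 12 libraries. The other markers listed for these cells, Tcf4, Bst2 and Irf8, were above 0 in every library. Bst2 is itself a member of the interferon list, and Irf8 is among the other interferon-stimulated genes below. The sum of the 4 markers therefore cannot be read as a level of these cells. The 4 markers summed to 51.1 to 59.4 CPM in sham and 63.8 to 142 at day 3. At day 7 the sum was 85.8 to 135 CPM, and at day 14 58.8 to 121. Among 12 tested genes of the sensing machinery, 0 passed in edgeR's test on any day, with median log2 fold changes of 0.27, 0.77 and 0.48. At an unadjusted p under 0.05 there were 3, 5 and 4 higher, against 20.6%, 7.76% and 6.43% of all genes. Tlr7, the endosomal receptor for single-stranded RNA, ran from 4.13 to 4.96 CPM in sham and from 5.99 to 41.8 CPM in the SCI libraries (log2 fold changes 2.01, 2.18 and 1.94; adjusted p from edgeR = 0.0825, 0.352 and 0.617). Cgas, the DNA sensor, and the RIG-I-like protein Dhx58 had log2 fold changes of 2.13 and 0.70 at day 3 (adjusted p from edgeR = 0.0973 and 0.0967). Tlr9, the receptor for unmethylated DNA, was at 0.691 to 1.21 CPM in sham, 0.593 to 0.722 at day 3, 1.74 to 2.41 at day 7 and 2.30 to 5.81 at day 14 (log2 fold changes -0.60, 1.11 and 1.91; adjusted p from edgeR = 0.287, 0.393 and 0.409). Sting1, the adaptor below Cgas, had a log2 fold change of 1.37 at day 14 (adjusted p from edgeR = 0.629).

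Among 11 genes of JAK-STAT signalling, 5 were called higher at day 3 and 0 passed in edgeR's test at days 7 and 14. On those later days 6 and 2 were higher at an unadjusted p under 0.05 (7.76% and 6.43% of all genes). Called higher at day 3 were 5.5% of all genes. This list, like the others, was chosen with earlier results of these data known. The number called at day 3 was 0 without sham replicate 1 or 3, SCI day 3 replicate 1 or 3, SCI day 7 replicate 2 or SCI day 14 replicate 3, 1 without sham replicate 2 and 3 without SCI day 14 replicate 1 or 2. DESeq2 and limma voom called 6 each. Socs3, a feedback inhibitor of cytokine receptors, rose by 5.76 on the log2 scale and Stat3, the transducer of IL-6 family signals, by 1.78 (adjusted p from edgeR = 0.0324 and 0.0332). Stat3 stood at 95.1 to 109.6 CPM in sham and at 399, 227 and 448 CPM in the day 3 libraries. The kinase Jak2 rose by 1.35 and the phosphatases Ptpn2 and Ptpn1, which damp the pathway, by 1.69 and 1.34 (adjusted p from edgeR = 0.0449, 0.0392 and 0.0460). Socs3 had log2 fold changes of 4.53 and 2.66 at the later days (adjusted p from edgeR = 0.241 and 0.594).
Of 33 other interferon-stimulated genes tested, 30 lay above 0 at day 3, against 51.9% of all genes. Called higher at day 3 was 1 of the 33, against 5.5% of all genes. This was Slfn2, a regulator of immune cell quiescence (log2 fold change 2.59 ± 0.516, SE; adjusted p from edgeR = 0.0338). At days 7 and 14, 0 of the 33 passed in edgeR's test. None was called at day 3 in the same 6 fits, nor without sham replicate 2, and 19 were called higher without SCI day 3 replicate 2. DESeq2 called 16 higher and 2 lower at day 3, and limma voom 14 and 2. At an unadjusted p under 0.05 there were 19, 20 and 10 higher on the 3 days (20.6%, 7.76% and 6.43% of all genes), and the medians were 1.22, 1.26 and 0.71. At day 3, 2 were lower at that limit, with ranges clear of sham: Cmpk2, a mitochondrial nucleotide kinase, and Adar, an RNA editor (log2 fold changes -1.06 and -0.85; adjusted p from edgeR = 0.0665 and 0.0591). The immunoproteasome subunit Psmb9 and the nuclear body protein Sp110 were next at day 3 (log2 fold changes 1.93 and 1.54; adjusted p from edgeR = 0.0520 and 0.0579). Irf8, a factor of myeloid cells, ran from 8.37 to 10.2 CPM in sham and from 12.1 to 68.9 CPM after SCI, and Ifi47, an interferon-inducible GTPase, had its highest log2 fold change at day 7 (2.36 and 2.45 at day 7; adjusted p from edgeR = 0.251 and 0.269). At day 14 the values of Slfn13 and Lgals3bp were 1.53 and 1.34 (adjusted p from edgeR = 0.609 and 0.618).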

How the data were processed

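RNA from 12 libraries of lumbar spinal cord was measured, 3 in each of 4 groups taken from the sample titles. Per the labels, a SMARTer mRNA-Seq kit was used. The deposited counts are unscaled whole numbers per gene, and the deposited columns named FPKM per the file headers are, by that name, scaled for gene length and library total. FPKM were used here only to rank levels between genes. The aligner, counting tool, use of strand and treatment of reads that match several genes were not given in the sources used here. The submitters' processing notes list the mouse builds GRCm38 and mm10, while gene identifiers are rat Ensembl identifiers, so no coordinates of the table are printed.

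CPM are counts per 1e+06 of a library's total, without TMM. Genes were filtered with filterByExpr, scaled with TMM and fitted over all 12 libraries (8 residual degrees of freedom) with edgeR 4.0.16 in R 4.3.3, with limma 3.58.1 and DESeq2 1.42.0 as alternatives. P-values were adjusted (Benjamini-Hochberg) over all 18714 genes, with 0.05 as the limit, in 7 comparisons. The SE is the absolute log2 fold change over the square root of the F statistic and restates the test. Deviations from sham used a prior count of 2. The fitting step was tested on simulated counts, drawn independently for each gene and library. No outlying libraries were simulated, so that test does not cover the dependence on single libraries. No pair of libraries was a copy (smallest chi-square per gene 63.0).

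Values per library are given for members that passed, the 6 with the largest change on each day, the receptor chains and Irf1, Irf7, Irf9 and Stat2; others quoted, such as Eif2ak2, Trim25, Cmpk2 and Adar, were chosen after their values were seen. Members and lists were chosen with earlier results of these data known. Without a matching symbol, and not analysed here, were Ifna1, Ifna2, Ifnk, Oas1b, Oas1g, Ddx60 and Slfn3. Of the cell markers, Cd4, Gzmb, Cldn5, Hba1, Hba-a1 and Hbb had no matching symbol either. Other alternatives were DESeq2 size factors, no TMM, a filter on 1 CPM in all libraries of a group or none, a replicate block, fits of only the groups compared, and fits without each library. Leaving out SCI day 3 replicates 1 and 3, or SCI day 14 replicates 1 and 2, was added after seeing the data.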

Additional observations from a re-analysis of the deposited data

How the results depend on the processing

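The number of members called at day 3 against sham, 4, was 19 with DESeq2, 20 with limma voom, 10 with a filter of 1 CPM, 7 without TMM and 2 without a filter. It was 0 when the fit held only the 2 groups, and 0 without SCI day 3 replicates 1 and 3 or without SCI day 14 replicates 1 and 2. The replicate block left 0 members called. The labels give replicate numbers without saying whether they pair the libraries. Of 12 libraries, 3 correlated best with their own number in another group, which cannot exclude a pairing or shared handling by number. The block is a check only. With it, 8 calls over all genes were left at day 3, against 1254 in the main fit. Leaving out 1 library at a time gave 0 to 21 members at day 3, 0 to 15 for SCI on any day and 0 to 4 for day 14 against day 3, with 0 to 2 for day 7 against day 3. DESeq2 and limma voom called 2 and 2 members at day 7, 13 and 18 for SCI on any day, and DESeq2 called 2 for day 14 against day 3.

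The medians stayed above 0 against sham in every fit, and at day 14 the median went from 0.62 to 0.26 without SCI day 14 replicate 2 and to 0.19 without replicates 1 and 2. At day 3 the median was 0.75 to 1.53 with 1 library left out and 0.33 without SCI day 3 replicates 1 and 3. That last setting moved day 14 against day 3 to 0.18 and day 7 against day 3 to 0.45. Of members whose values are printed, Ifnar1, Mx2, Usp18 and Xaf1 at day 3 turned to -0.11, -0.42, -0.52 and -0.003 there, and Ifit1 at day 7 to 0.041 without TMM. Without SCI day 14 replicates 1 and 2, Irf7, Stat2, Mx1, Rsad2, Cxcl9, Cxcl10 and Cxcl11 at day 14 turned to -0.35, -0.085, -0.45, -0.66, -0.63, -1.02 and -1.32. With 1 library left out, Mx2 at day 3 ran from -0.47 to 0.44, at day 7 Ifit1 ran from -2.01 to 1.78, Cxcl9 from -1.61 to 2.05 and Cxcl10 from -0.97 to 2.26, and at day 14 Cxcl10 ran from -0.016 to 1.45, Irf7 ran from -0.032 to 1.46, Stat2 from -0.026 to 0.22 and Rsad2 from -0.35 to 0.71. The cause was not tested. A group with 1 library left was assumed to vary like the others, and SCI on any day has no fit of only its groups. Depth limits Isg15 and the interferon genes, which had too few counts to test.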
